A study of Bos taurus with 30 samples.

Results

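The miR-200 family comprises bta-miR-200a, bta-miR-200b, bta-miR-429, bta-miR-200c and bta-miR-141, written here without the species prefix, and its 5 mature miRNAs were taken by name from the 1030 bovine miRNAs measured in the arcuate nucleus (ARC) of the hypothalamus. Small RNA libraries were made from the ARC of 30 Holstein-Friesian bull calves, with 1 library per calf, to ask how the plane of nutrition in early life is reflected in this tissue. From 2 to 12 weeks of age, 15 calves were on the HI diet, with 1.5 kg of milk replacer made up to 10 L each day and free access to concentrates. The other 15 were on the MOD diet, with 0.5 kg of milk replacer in 4 L and 0.5 kg of concentrates a day. All 30 calves were euthanised at 12 weeks of age, when the ARC was taken. Each library was prepared from a piece of dissected tissue, in which fewer cells of a type and less RNA per cell cannot be told apart. Calves are named here by their animal codes.

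The family is encoded in a pair of clusters on different chromosomes. RefSeq lists MIR429 (gene identifier 100313047), MIR200A (791036) and MIR200B (791054) side by side in the bovine assembly ARS-UCD2.0, with no other gene over their span and with TTLL10 and C16H1orf159 as the nearest coding genes. MIR141 (100313001) and MIR200C (791037) lie together between PHB2 and PTPN6, and the long non-coding RNA gene LOC112446758 overlaps their span. Mature miRNAs guide silencing complexes to messenger RNAs through a short seed at their 5′ end. Members of the family carry a pair of closely related seeds that cut across the clusters, since miR-200b, miR-429 and miR-200c have the same seed, and miR-200a and miR-141 share the other. The family is best known for repression of the transcription factors ZEB1 and ZEB2 and for its abundance in epithelial cells. In the mouse pituitary, miR-200b and miR-429 repress ZEB1 and are needed for the release of luteinizing hormone at ovulation.

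Between 6291376 and 21083250 reads were counted on miRNAs per library, with a median of 8512614 in the HI calves and 8811432 in the MOD calves. The libraries fell into 2 depth classes, a shallower one of 12 HI and 9 MOD libraries and a deeper one of 3 HI and 6 MOD libraries. Values are in CPM over scaled library sizes, a read count divided by library size, for which 3 reads were worth 0.138 to 0.558 CPM. The 9 calves with the lowest animal codes, 7 HI and 2 MOD, were treated as a further class, because earlier results of these data had set them apart. The neuronal miR-124a was present in every library. Its level ranged from 825.6 CPM in HI calf A37824 to 9705 CPM, with a median of 6356 CPM.

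All 5 members were detected, and the most abundant was miR-141 in every calf. The lowest miR-141 level among the 30 calves was 7.27 CPM, the median was 27.4 CPM and the highest was 6120 CPM, in HI calf A37824. For miR-200a these values were 0.558, 2.93 and 1241 CPM. For miR-200c they were 0.781, 2.81 and 612.8 CPM. Thus miR-141 stood about an order of magnitude above its cluster partner miR-200c, whereas miR-200a and miR-200c had like medians. The level of miR-429 ranged from 0.131 CPM, which was 1 read in HI calf A92928, to 548.4 CPM in MOD calf A41971, with a median of 1.33 CPM. The least abundant member, miR-200b, ranged from 0 reads in MOD calf A57826 to 275.1 CPM in A37824, with a median of 0.799 CPM. Of the 150 values of the family, 11 rested on 3 reads or fewer, 8 of miR-200b and 3 of miR-429, so the lowest values of these members carry a large counting error.

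**Figure D1:**
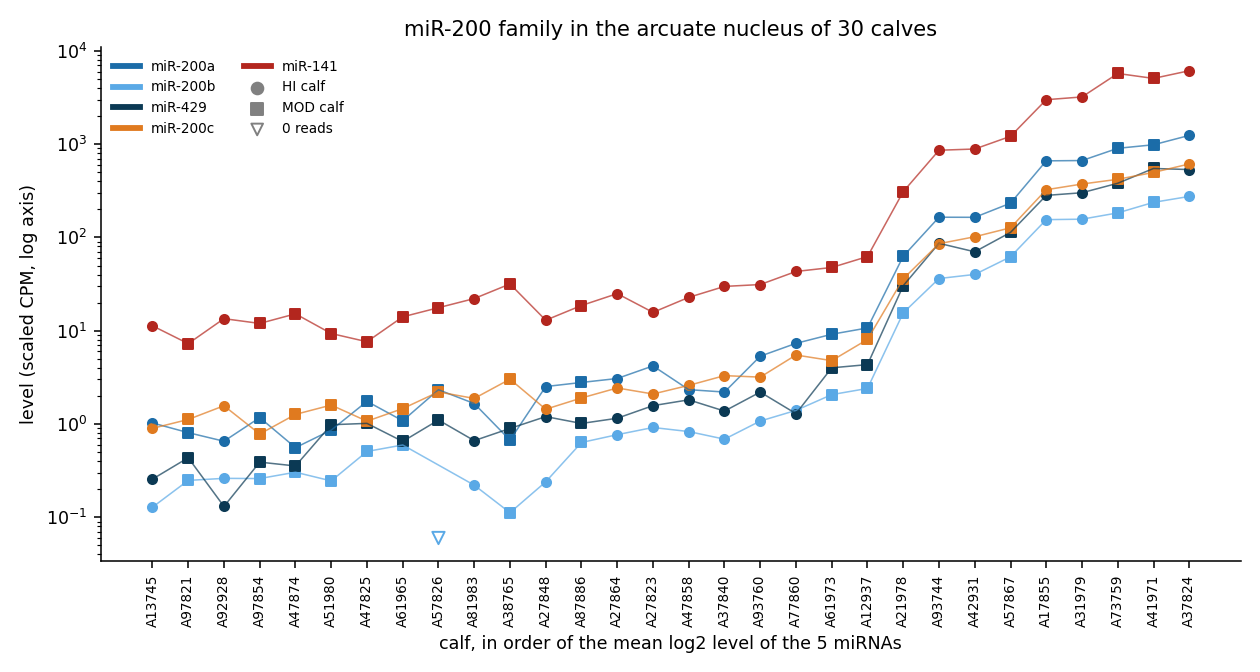
Level of each member of the miR-200 family (CPM, log axis) in each of the 30 calves, in order of the mean log2 level of the 5 miRNAs, with circles for HI and squares for MOD calves and an open triangle for the calf with 0 reads of miR-200b. The 9 calves at the right stand above the other 21, with miR-200a at 62.9 CPM or more, and their lines run nearly parallel, while among the other 21 the lines of miR-200a and miR-200c cross.

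The order of the members was compared within each calf. In all 30 calves miR-141 had more reads than miR-200a. In 28 of 30 calves miR-200c had more reads than miR-429, in 28 of 30 miR-429 had more than miR-200b, and miR-200b was the lowest member in 28 of 30. The neighbours miR-200a and miR-200c did not keep their order over all 30 calves. The miRNA miR-200a was the higher in 21 of 30 calves, and the mean log2 ratio of miR-200a over miR-200c, 0.28 ± 0.74 (SD, n = 30), was smaller than its spread between calves.

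The calves fell into separate sets by the level of the family, a division seen in the data and not a group of the study. When the calves were ordered by the mean log2 level of the 5 members, the widest gap between neighbours was 2.45 and the next widest 1.36. Above it lay 9 calves, which were HI calves A17855, A31979, A37824, A42931 and A93744 and MOD calves A21978, A41971, A57867 and A73759. The level of miR-200a was 62.9 to 1241 CPM in these 9 calves and 0.558 to 10.7 CPM in the other 21. The order of miR-200a above miR-200c held in all 9 and in 12 of the other 21. That of miR-200c above miR-429 held in 7 of the 9 and in all 21. Both sets held both diets, both depth classes and both classes of animal codes: the 9 calves were 5 HI and 4 MOD, 6 shallower and 3 deeper libraries, and 4 of the low codes and 5 of the others. The 5 members together took between 0.0428% and 0.682% of the reads of a library in the 9 calves, and between 0.000888% and 0.00812% in the other 21. Over all calves the reads on the family ranged from 106 to 121410 per library.

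The spread between calves was far wider than for a typical miRNA. On the log2(CPM + 0.25) scale the SD over the 30 calves was 3.64 for miR-200a, and 0 of the 476 miRNAs tested had a larger one. The SD was 3.51 for miR-429, 3.39 for miR-200b, 3.29 for miR-141 and 3.16 for miR-200c, against a median SD of 0.37 over the tested miRNAs. Counting tested members too, 3 of the tested miRNAs had a larger SD than miR-141 and 5 a larger one than miR-200c. From the lowest to the highest calf, miR-200a spanned a 2224-fold range and miR-141 an 842-fold range.

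The diets were then compared. For miR-141 the HI calves ranged from 11.3 to 6120 CPM with a median of 29.8 CPM, and the MOD calves from 7.27 to 5718 CPM with a median of 18.6 CPM. For miR-200a the HI range was 0.654 to 1241 CPM with a median of 4.19 CPM, and the MOD range was 0.558 to 984.4 CPM with a median of 2.33 CPM. Both ranges overlapped almost throughout, and both diets held calves at the top and at the bottom. The medians of HI and MOD were 3.18 and 2.21 CPM for miR-200c, 1.57 and 1.02 CPM for miR-429, and 0.918 and 0.596 CPM for miR-200b. Depending on the member, 10 to 12 of the 15 HI calves lay above the MOD median, and 6 to 7 of the 15 MOD calves lay above the HI median.

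**Figure D2:**
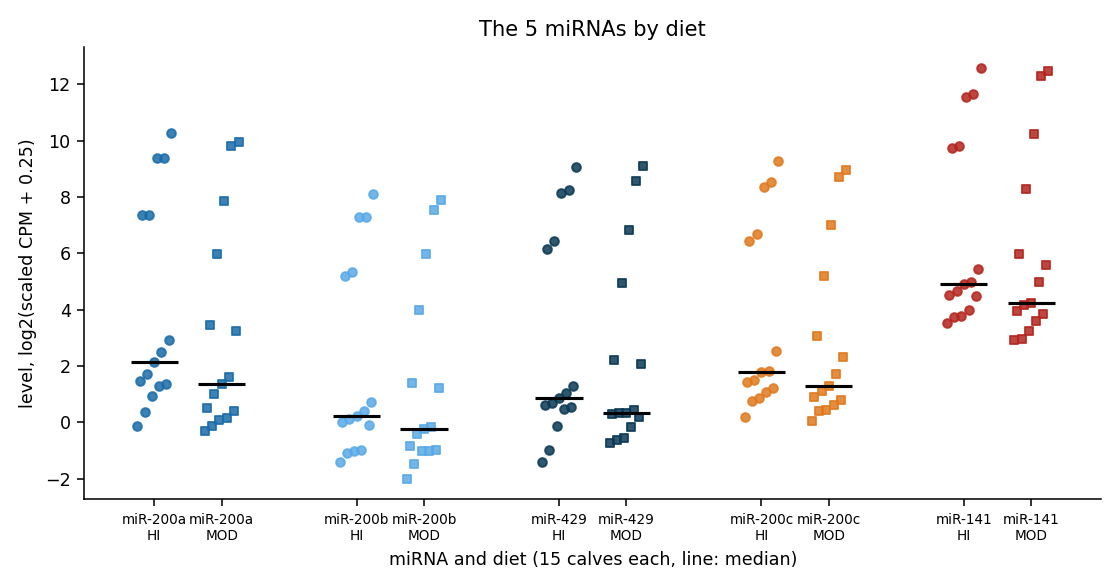
Level of each member on the log2(CPM + 0.25) scale in the 15 HI calves (circles) and the 15 MOD calves (squares), with a line at the median of each diet. In every member the ranges of the diets overlap almost throughout, and the median of the HI calves is the higher, as for miR-141 at 29.8 against 18.6 CPM.

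No member passed the study's thresholds for a difference between diets (fold change above 1.5 at an adjusted p under 0.1). Values were tested as log2(CPM + 0.25) with limma over the 476 miRNAs that passed a filter on low values, with Benjamini-Hochberg adjustment. The filter kept miR-200a, miR-429, miR-200c and miR-141. In CPM over library sizes without scaling, which the filter used, miR-200b reached 1.16 in 13 libraries and 14 were needed. Of all 476 miRNAs limma called 0 (0%), and 21 (4.41%) had an unadjusted p under 0.05, none of them a member of the family. On the recovered reads edgeR's quasi-likelihood test called 0, with 20 at an unadjusted p under 0.05. DESeq2's Wald test called 1, miR-2419-3p, which is named here because it was called, and 21 had an unadjusted p under 0.05.

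Between HI and MOD the log2 fold change was 0.89 (standard error 1.29, 95% confidence interval -1.74 to 3.51) for miR-200a, with an adjusted p of 0.982 from limma. It was 0.70 (standard error 1.17) for miR-141, 0.66 (standard error 1.12) for miR-200c and 0.52 (standard error 1.25) for miR-429, with adjusted p between 0.982 and 0.984 from limma. In the fit without a filter, over 863 miRNAs, miR-200b had a log2 difference of 0.68, with a standard error of 1.2 and limma's adjusted p at 0.969. The intervals spanned more than a doubling in either direction, so that at this spread between calves a difference of that size was not detectable. Permutation tests of the difference in mean log2 level, two-sided with 100000 resamples, gave p = 0.508 for miR-200a, 0.583 for miR-200b, 0.689 for miR-429, 0.569 for miR-200c and 0.563 for miR-141. The fold change moved with single calves, and without A37824 (HI) that of miR-200a was 0.43 and that of miR-429 was 0.07, while without A41971 (MOD) they were 1.38 and 1.01. It also moved with the test, and for miR-141 it was 0.18 with DESeq2 and 0.21 with edgeR, and for miR-429 1.28 with DESeq2 and 0.26 with edgeR.

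Within the classes of libraries the differences were again smaller than their spread. For miR-200a, HI minus MOD was 1.02 on the log2 scale in the shallower libraries (p = 0.528 by exact permutation over 12 HI and 9 MOD calves) and 0.59 in the deeper ones (p = 0.75 by exact permutation over 3 HI and 6 MOD calves). Among the 9 lowest animal codes it was 0.24 (p = 0.944 by exact permutation over 7 HI and 2 MOD calves), and among the other codes 0.21 (p = 0.878 by exact permutation over 8 HI and 13 MOD calves). With the class of animal codes as a term in limma, the log2 fold change was 0.22 for miR-200a, 0.23 for miR-141, 0.18 for miR-200c and -0.08 for miR-429.

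Ratios between members were taken for all 10 pairs. A plain ratio of levels does not depend on how a library is scaled, whereas the log2 ratios used for SDs and tests hold the pseudocount of 0.25 CPM and so depend on it at low levels, with a median SD across clusters of 0.61, or 0.79 at a pseudocount of 0.1. In the 9 calves of high level each ratio kept to a narrow band. In the first cluster, miR-200a stood 3.76 to 4.92 times above miR-200b (median 4.25) and 1.80 to 2.37 times above miR-429 (median 2.21), and miR-429 stood 1.75 to 2.39 times above miR-200b (median 1.94). In the second cluster, miR-141 stood 8.58 to 13.6 times above miR-200c (median 9.56), and the highest of these ratios belonged to MOD calf A73759. Across the clusters, the ratio of miR-141 over miR-200a was 4.52 to 6.34 (median 5.14), and that of miR-200a over miR-200c was 1.62 to 2.15 (median 1.92). The ratio of miR-141 over miR-200b was 19.3 to 31.2, that of miR-141 over miR-429 was 9.23 to 15.0 and that of miR-200c over miR-429 was 0.907 to 1.45. Bands within and across clusters were thus of like width. The levels themselves differed about 20-fold among these 9 calves, 19.7-fold for miR-200a and 19.8-fold for miR-141.

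In the other 21 calves the ratio within the second cluster had about the same centre, with miR-141 at 5.85 to 15.3 times miR-200c (median 9.04). The ratio of miR-141 to the first cluster spread further. In these calves miR-141 stood 3.75 to 47.2 times above miR-200a (median 9), and miR-200a stood at 0.222 to 2.00 times miR-200c (median 1.14). Ratios within the first cluster, which rest on few reads, also spread widely, with miR-200a at 1.82 to 10.5 times miR-200b and 0.75 to 5.67 times miR-429, and miR-429 at 0.5 to 8 times miR-200b. The ratios over miR-200b leave out MOD calf A57826, which had 0 reads of miR-200b. The extreme of miR-141 over miR-200a was MOD calf A38765, in which miR-141 had 283 reads, miR-200c 27, miR-429 8, miR-200a 6 and miR-200b 1. At the other end, HI calf A27823 had 120 reads of miR-141, 16 of miR-200c, 12 of miR-429, 32 of miR-200a and 7 of miR-200b. In A38765 miR-141 was thus 47.2 times miR-200a, and in A27823 3.75 times, while over miR-200c it was 10.5 and 7.5 times.

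**Figure D3:**
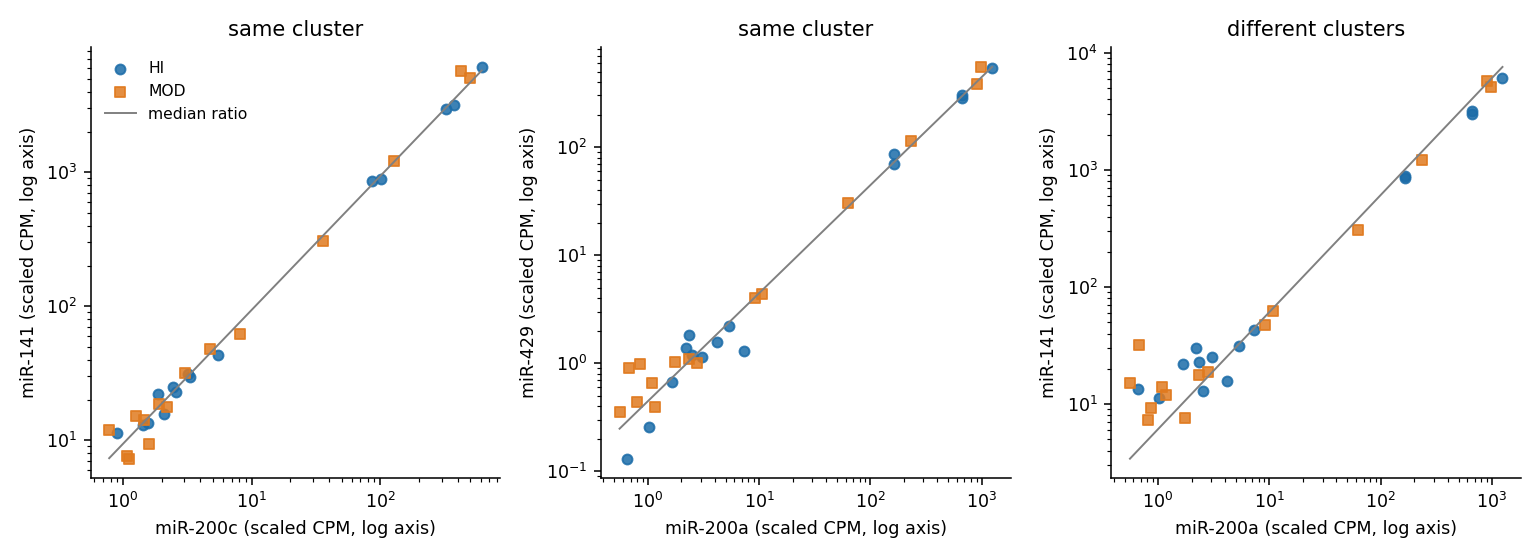
Level of a member against that of another (CPM, both axes log) in the 30 calves, for the pairs miR-141 and miR-200c, miR-429 and miR-200a, and miR-141 and miR-200a, with blue circles for HI calves, orange squares for MOD calves and a grey line at the median ratio. All pairs run along or near the line at high levels. Against miR-200a, miR-141 lies mostly below the line there, with a median ratio of 5.14 where the line is at 6.11. At low levels miR-141 lies mostly above the line when set against miR-200a, up to 47.2 times miR-200a, whereas miR-141 against miR-200c stays between 5.85 and 15.3 times.

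How far a ratio should vary from counting error alone was computed from the reads behind it. In the 21 calves of low level, the SD of the log2 ratio of miR-141 over miR-200c was 0.31, and counting error alone gave 0.32. In these calves this pair from the same cluster varied no more than its reads allow. The SD of miR-141 over miR-200a in the same calves was 0.78, where counting error gave 0.32, so that the variance was 5.80 times that of counting. The other 5 ratios across clusters had variances between 1.35 and 3.09 times that of counting, and the 3 ratios within the first cluster, which rest on the fewest reads, 1.37 to 1.68 times. In the 9 calves of high level, where reads were many, the median SD was 0.15 for the 4 pairs within clusters and 0.16 for the 6 pairs across clusters, against 0.06 and 0.05 from counting. Here miR-141 over miR-200c had an SD of 0.21 against 0.04 from counting, and its variance was 23.9 times that of counting, beside 17.3 times for miR-141 over miR-200a. Both values rested on A73759, without which they were 5.64 and 5.54 times. Over all 10 pairs the variance was 1.93 to 23.9 times that of counting with A73759, with miR-141 over miR-200c the highest, and 1.59 to 10.7 times without it, with miR-200c over miR-429 the highest. These SDs are a description and were not tested, and the pairs share members.

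**Figure D4:**
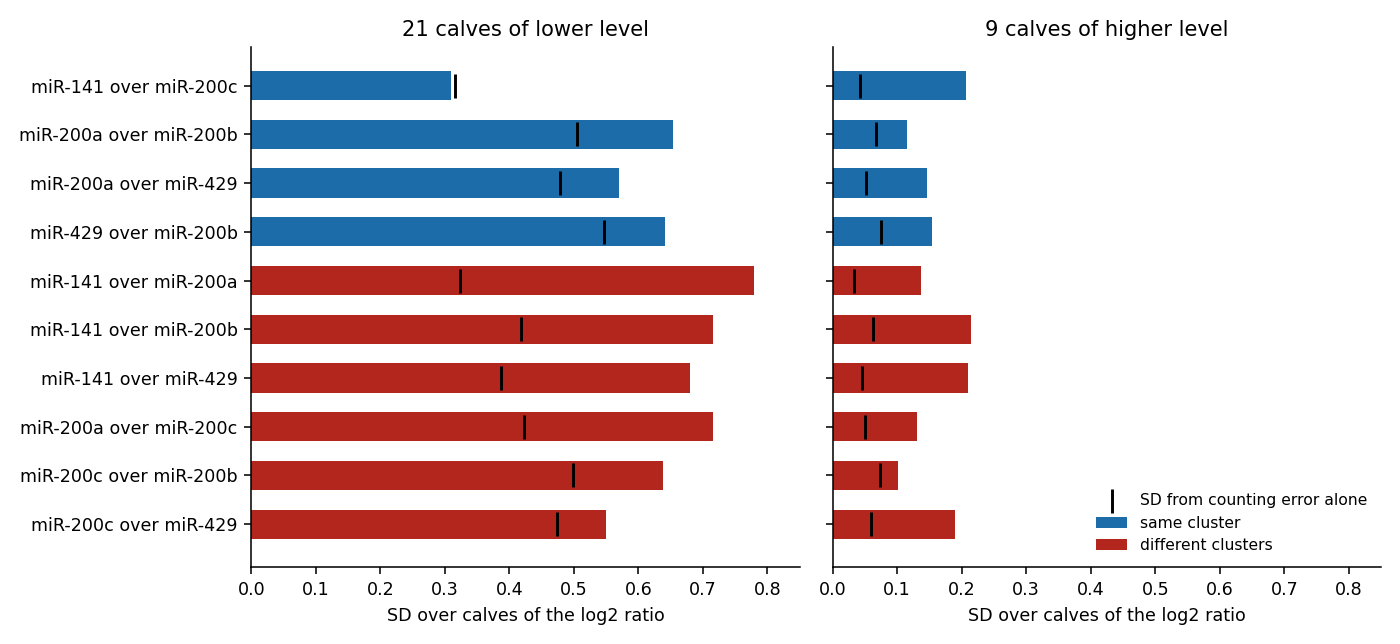
SD over calves of the log2 ratio of each pair of members (bars, blue within a cluster and red across clusters) beside the SD that counting error alone gives (black tick), in the 21 calves of low level and in the 9 of high level. In the 21 calves miR-141 over miR-200c sits at its tick, 0.31 against 0.32, and miR-141 over miR-200a lies farthest beyond its own, 0.78 against 0.32.

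The balance of the clusters was also taken as the share of the family's reads that fell on miR-200a, miR-200b and miR-429. In the 9 calves of high level this share was 19.3% to 24.9%, with a median of 23.3%. The lowest was that of A73759, with an exact Clopper-Pearson 95% interval of 19.1% to 19.5%, and the highest that of A17855, with an interval of 24.4% to 25.4%. Counting error is thus smaller than the difference between these libraries. In the other 21 calves the share was 4.62% to 27.4%, with a median of 15.4%, and 15 of the 21 lay below the lowest of the 9, or 18 of the 21 without A73759. For 7 of the 21, HI calves A13745, A37840, A81983 and A92928 and MOD calves A38765, A47874 and A61965, the whole interval lay below 19.1%, the lowest bound among the 9. Without A73759 the lowest bound among the other 8 was 21.2%, and the intervals of 12 of the 21 lay below it. The smallest share was 15 of 325 reads in A38765, 4.62% (interval 2.61% to 7.5%). The 2 shares above the 9 calves, 27.3% in A27823 and 27.4% in A47825, had intervals of 21% to 34.3% and 21.5% to 33.9% that reached into their range. Both depth classes showed this spread, with 4.62% to 27.3% in the shallower and 6.90% to 27.4% in the deeper libraries among the 21 calves. Reads carry no molecular identifiers here, so these intervals cover counting error only.

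**Figure D5:**
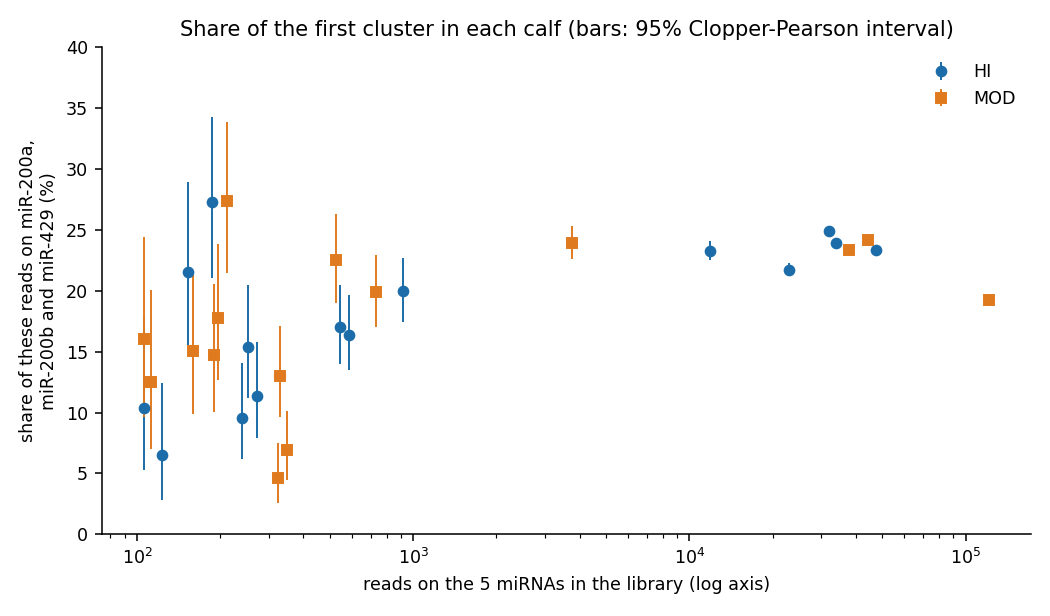
Share of the family's reads on miR-200a, miR-200b and miR-429 (%) against the reads on all 5 members in the library (log axis), with HI calves as blue circles, MOD calves as orange squares and exact 95% Clopper-Pearson intervals as bars. Libraries with many family reads lie between 19.3% and 24.9%, and those with few reads spread from 4.62% to 27.4%.

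Within the family's reads the second cluster dominated throughout. The share of miR-141 ranged from 63.7% in A47825 to 87.1% in A38765, with a median of 73.1%. That of miR-200c stayed between 5.36% and 12.3%. The share of miR-200a ranged from 1.85% to 17.1%, with a median of 13.4% in the 9 calves of high level and 8.18% in the other 21.

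The diets were compared on the same 10 log2 ratios with two-sided permutation tests of 100000 resamples, and 0 of 10 passed an adjusted p of 0.05. The smallest p belonged to a pair within the first cluster. The log2 ratio of miR-200a over miR-429 was 1.15 ± 0.42 (SD, n = 15) in the HI calves and 0.78 ± 0.49 (SD, n = 15) in the MOD calves. The difference of 0.37 had p = 0.0331 in the permutation test, or 0.331 after Benjamini-Hochberg adjustment over the 10 ratios. Within the shallower libraries it was 0.41 (p = 0.0822 by exact permutation over 12 HI and 9 MOD calves) and within the deeper ones 0.15 (p = 0.595 by exact permutation over 3 HI and 6 MOD calves). Among the low animal codes it was 0.05 (p = 0.778 by exact permutation over 7 HI and 2 MOD calves) and among the others 0.38 (p = 0.131 by exact permutation over 8 HI and 13 MOD calves). The other 9 ratios differed between diets by -0.19 to 0.23 on the log2 scale. For miR-141 over miR-200c the log2 ratio was 3.13 ± 0.18 (SD, n = 15) in the HI calves and 3.09 ± 0.39 (SD, n = 15) in the MOD calves (permutation test, p = 0.729). For miR-141 over miR-200a it was 2.73 ± 0.62 (SD, n = 15) and 2.92 ± 0.82 (SD, n = 15) (permutation test, p = 0.502).

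Since the calves formed separate sets, correlations between members over calves were taken within each set, 20 relations in all. In the 9 calves of high level, Pearson's r was 0.990 to 0.998 and Spearman's rho 0.933 to 1 over the 10 pairs, with exact permutation tests and an adjusted p of at most 0.000999. In the 21 calves of low level, the 4 pairs within clusters had r of 0.747 to 0.930 and rho of 0.699 to 0.926. The 6 pairs across clusters had r of 0.660 to 0.799 and rho of 0.575 to 0.782. All 10 passed, with an adjusted p of at most 0.00747 in permutation tests of 100000 resamples. The number that passed was 5 among the 10 HI calves alone, 2 among the 11 MOD calves alone and 1 among the 6 deeper libraries alone. The closest pair was miR-141 and miR-200c (r = 0.930, rho = 0.926, permutation p = 1e-05 for both, the smallest these resamples can give). The loosest was miR-141 and miR-200b (r = 0.660, rho = 0.575, permutation p = 0.00102 and 0.00747), of which the latter is the member with the fewest reads.

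When the 2 calves farthest from the median were left out, r remained between 0.978 and 0.997 in the 9 calves, and between 0.448 and 0.891 in the 21. The relation of miR-141 and miR-200b then had r = 0.448 and rho = 0.426 (permutation p = 0.0555 and 0.0711), so that it rested on those calves, while the other 9 pairs kept a permutation p under 0.05. Within the shallower libraries rho was 0.550 to 0.921 for the 15 calves of low level and 0.943 to 1 for the 6 of high level, and within the deeper libraries it was 0.600 to 1 for the 6 calves of low level. Among the 16 calves of low level with the other animal codes rho was 0.485 to 0.915. The deeper libraries of high level, both code classes of high level and the low codes of low level held 3 to 5 calves each, too few for a value.

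The miRNAs whose levels followed the family most closely were taken by Spearman's rho over the 30 calves with the mean log2 level of the 5 members, as a description with no test. The libraries share their depth and scaling, and the 30 calves include both sets. For comparison, each member had a rho of 0.906 to 0.953 with the mean of the other 4. Closest outside the family was miR-182 (rho = 0.893), followed by miR-183 (0.875), which is encoded in the same cluster and is known from sensory and neuroendocrine cells. The level of miR-182 ranged from 33.8 to 39239 CPM with a median of 200.1 CPM, and that of miR-183 from 6.93 to 4964 CPM with a median of 21.3 CPM. Both were highest in A41971 and both also followed the family within each set, with rho of 0.967 in the 9 calves for each, and of 0.691 for miR-182 and 0.639 for miR-183 in the 21.

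The next were miR-493 (rho = 0.814), miR-148a (0.770), miR-199b (0.763), miR-30d (0.733), miR-375 (0.726), miR-186 (0.717), miR-210 (0.712) and miR-199a-3p (0.701). Within the sets their rho was 0.35 to 0.983 in the 9 calves and 0.129 to 0.588 in the 21. All 8 were highest in A37824, but their ranges differed widely. The miRNA miR-375, known from endocrine cells of the pancreas and pituitary, ranged from 75.7 to 47575 CPM, and its rho was 0.933 in the 9 calves and 0.206 in the 21. By contrast miR-30d ranged only from 6411 to 11417 CPM. The miRNAs miR-199b and miR-199a-3p, known from mesenchymal cells, had rho of 0.967 and 0.983 in the 9 calves and 0.312 and 0.129 in the 21. Values of miR-199a-3p were almost the same as those of miR-199c, so the 2 rows are not separate measurements. The lowest rho belonged to miR-9-3p (-0.803), miR-582 (-0.794) and miR-363 (-0.780), with -0.867 to -0.733 in the 9 calves and -0.726 to -0.527 in the 21, and miR-9-3p, a neuronal miRNA, ranged from 132.7 CPM in A37824 to 1004 CPM.

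Lists of miRNAs known from the cell types that such a dissection can hold were set beside the family. Their part in the levels of the family was not tested. In the pituitary and neuroendocrine list (miR-375, miR-7, miR-182, miR-183 and miR-96), all 4 tested miRNAs had a positive rho with the family, from 0.682 to 0.893 over the 30 calves, 0.850 to 0.967 within the 9 of high level and 0.206 to 0.691 within the other 21. Over the 30 calves the median rho of the 472 tested miRNAs outside the family was -0.0701. Of the 4, miR-182, miR-183 and miR-375 were already named above as close to the family, and the lists were chosen with earlier results known. The 5 miRNAs of the list summed to 2301 to 91957 CPM in the HI calves (median 5717 CPM) and 2279 to 77042 CPM in the MOD calves (median 5804 CPM). The untested miR-96 ranged from 0 to 161.0 CPM with its maximum in A41971. Of the other epithelial list, miR-203 was not analysed here, and miR-31, miR-192, miR-215 and miR-194 had rho of 0.0220 to 0.677 over the 30 calves, 0.2 to 0.967 within the 9 and -0.0753 to 0.0753 within the 21. The epithelial miR-205, below the filter, ranged from 0 CPM to 152.2 CPM in A37824, with a median of 0.450 CPM. The summed level of this list was 4320 to 8668 CPM in the HI and 4237 to 6657 CPM in the MOD calves. Most of this sum was miR-192, at 4080 to 7889 CPM over the 30 calves.

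In the neuron list, 8 of 9 miRNAs, or 7 of 8 with miR-124a and miR-124b as 1, had a negative rho with the family over the 30 calves, where the median over the 472 tested miRNAs outside the family was -0.0701. The values ran from -0.803 for miR-9-3p to -0.518 for miR-137, and miR-129 was the exception at 0.422. Within the 9 calves of high level the list had rho of -0.9 to 0.25. Within the other 21 it had rho of -0.527 to 0.327, with miR-128 at 0.161 and miR-137 at -0.0169. The values of miR-124a and miR-124b were identical, so they are 1 measurement. The list, with both rows counted, summed to 18903 to 97076 CPM in the HI and 26053 to 93040 CPM in the MOD calves. All 3 oligodendrocyte miRNAs (miR-219-5p, miR-219-3p and miR-338) had rho of -0.559 to -0.495 over the 30 calves, -0.767 to -0.683 within the 9 and -0.279 to -0.173 within the 21, with a summed level of 1424 to 13877 CPM in the HI and 2129 to 7242 CPM in the MOD calves. The ependyma and choroid plexus list, 7 miRNAs of the miR-34, miR-449 and miR-204 families, had rho of -0.158 to 0.299 over the 30 calves. It summed to 22285 to 44671 CPM in the HI and 23109 to 39684 CPM in the MOD calves, mostly miR-204 (19955 to 43990 CPM). Within the 9 calves of high level its members had rho of -0.967 to 0.183, and within the other 21 of -0.191 to 0.362. The erythroid list (miR-451, miR-144 and miR-486) had rho of -0.168 to 0.0358 over the 30 calves, -0.467 to 0.283 within the 9 and -0.227 to -0.0584 within the 21, and summed to 21182 to 39732 CPM in the HI and 23713 to 40320 CPM in the MOD calves. Most of this sum was miR-486, at 20971 to 40132 CPM. The leukocyte list (miR-142-5p, miR-142-3p, miR-223, miR-150 and miR-155) had rho of -0.560 to 0.509 over the 30 calves, -0.533 to 0.367 within the 9 and -0.216 to 0.0416 within the 21, and summed to 1190 to 1967 CPM and 1190 to 2325 CPM. Between the diets, 0 of the 35 list members tested were called by limma, and 0 had an unadjusted p under 0.05.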

How the data were processed

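The authors removed adapters from small RNA reads, kept reads of miRNA length, removed other short RNAs and counted known bovine miRNAs with miRDeep2 against ARS-UCD1.2. The submitters' processing notes name FastQC 0.11.8, cutadapt 2.6, R 3.4 and edgeR 3.5. The signal values the authors deposited are decimals in the form of CPM over scaled library sizes, and the scaling is not given in the sources used here. Reads were recovered from the worth of 1 read in each library. Within 0.02 of a whole number lay 94.5% to 97.9% of values under 200 reads, and all 150 values of the family. The labels name a stranded RNA kit, the study's methods a small RNA kit.

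Diets were compared with limma 3.58.1 (lmFit, eBayes with trend) on log2(CPM + 0.25), over the 476 miRNAs kept by filterByExpr of edgeR 4.0.16, with Benjamini-Hochberg adjustment. The filter asked for 1.16 CPM over library sizes without scaling, worth 10 reads at the median depth, in 14 libraries. Fold changes of low miRNAs on this scale depend on the pseudocount, and the log2 fold change of miR-200a was 0.93 at 0.1 and 0.76 at 1. The quasi-likelihood test of edgeR, run on recovered reads, called 0. DESeq2 1.42.0 was an alternative. Ratios and correlations used permutation tests (Python 3.11.15, scipy 1.17.1, R 4.3.3), exact for diets within a class of libraries and for correlations over 9 calves or fewer. The counting SD is an approximation that adds Poisson variances of both reads. Scripts were tested on simulated data.

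The members, the 7 lists, the class of animal codes and the tests were chosen with earlier results of these data known. The 9 and 21 calves were set apart after the levels were seen. Named miRNAs are the members, the 10 with the highest and the 3 with the lowest rho with the family, and the lists. Rows that share a seed with a member were to be named too and are not given, because no mature sequences were used here. Mature sequences and coordinates are not given.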

Additional observations from a re-analysis of the deposited data

How the results depend on the processing

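No paired analysis was possible because each calf was on 1 diet, and replicate numbers, given in accession order, only name calves and pair none. The count of miRNAs past the thresholds was 0 with limma, 1 with DESeq2's Wald test, and 0 to 1 when each calf was left out. It was 1 when either A77860 (HI) or A97854 (MOD) was left out, and the miRNA was miR-2419-3p each time. The log2 fold change of miR-429 turned to -0.083 with the class of animal codes as a term. It was 1.28 with DESeq2 and 0.26 with edgeR, against 0.52 with limma. For miR-141 DESeq2 gave 0.18 and edgeR 0.21, against 0.70, for miR-200a 0.39 and 0.43, against 0.89, and for miR-200c 0.45 and 0.48, against 0.66. Leaving out each calf gave 0.43 to 1.38 for miR-200a, 0.28 to 1.17 for miR-141, 0.25 to 1.1 for miR-200c and 0.07 to 1.01 for miR-429. For miR-200b it gave 0.45 to 0.93 over the 17 fits whose filter kept it, and alternatives with the filter gave no value for it. No member was called in any of these fits.

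Differences between diets in log2 ratios turned for miR-141 over miR-200b at a pseudocount of 0.1 (-0.087, against 0.018) and for miR-200c over miR-200b at 0.5 (0.034) and 1 (0.072, against -0.022). Without single calves these ranged from -0.069 to 0.15 and from -0.072 to 0.11, and miR-141 over miR-200c from -0.011 to 0.088. None of the 10 ratios passed an adjusted p of 0.05 under any pseudocount, without any single calf or with permutation within depth or code classes. The smallest adjusted p of these fits without a calf, 0.088 in permutation tests, was that of miR-200a over miR-429 without HI calf A47858, where the range over such fits was up to 0.692. Of the 10 rank correlations in the 21 calves of low level, 5 passed in the 10 HI calves alone, 2 in the 11 MOD calves alone and 1 in the 6 deeper libraries alone, with fewer calves each. By the variance of the log2 ratio instead of rho, 5 of the 10 miRNAs most like the family remained, and without A37824 all 10 did. The SDs for 9 and 21 calves, and the values without A73759, were chosen after seeing the data. Depth limits miR-200b and miR-429 in the 21 calves. Whether the libraries came from separate runs is not given, and the causes of these changes were not tested.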
